A study of Mus musculus with 36 samples.

Results

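Transcript levels of the Ly49 receptor family were followed through 10 genes in mouse natural killer (NK) cells: Klra1 (Ly49A), Klra2 (Ly49B), Klra3 (Ly49C), Klra4 (Ly49D), Klra5 (Ly49E), Klra6 (Ly49F), Klra7 (Ly49G), Klra8 (Ly49H), Klra9 (Ly49I) and the pseudogene Klra13-ps (Ly49M). The genes were found by symbol, and all 10 are listed in each of the 4 deposited tables, among 32940 genes in the table of sorted subsets and 56923 genes in each of the other tables. In the 3 tables that allowed a comparison, 9 of the 10 had a mean of at least 1 TPM (transcripts per 1000000, a level per transcript length scaled to a fixed library total) and were tested. Klra2 was not tested, and it ran from 0 to 3.08 TPM over all 36 libraries.

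The subset table holds 18 libraries of mature splenic NK cells, CD27-negative and CD11b-positive, from C57BL/6 mice with intact B2m (WT) and from B2m-/- mice (KO), which lack the light chain of MHC class I. The cells were sorted by surface receptors into TP cells with Ly49C, Ly49I and NKG2A, SP cells with Ly49I alone of these 3, and TN cells with none of them, and each of the 6 combinations had 3 libraries. Splenic NK cells of WT mice were also taken after 22 h of splenocyte culture with ionomycin, which carries calcium across membranes, or with its vehicle (3 libraries each). Further WT libraries came after 48 h in medium alone or on a plate coated with antibodies against 2 activating receptors, either NKp46 with NKG2D or NKp46 with DNAM-1 (3 libraries each). A last set of 3 libraries came from CD27-CD11b+ NK cells of subcutaneous MC38 B2m-/- tumours in C57BL/6 mice at day 10, MC38 being a colon carcinoma line. The tumour column names carry the words B2MKO and SP while the genotype label says WT (B2m was 3928.87 to 5196.03 TPM there), and titles and column names give different groups for 6 of the 9 antibody samples, for which the column names were used. Ages are not given in the sources used here.

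Ly49 receptors are lectin-like homodimers of the NK cell surface, encoded side by side in the NK gene complex, and each NK cell expresses its own combination of them. Inhibitory members carry a tyrosine-based motif that recruits the phosphatase SHP-1 (Ptpn6) when they bind MHC class I, while the activating members Ly49D and Ly49H signal through the adaptor DAP12 (Tyrobp). In C57BL/6 mice Ly49C and Ly49I are known to bind the MHC class I molecule H-2Kb, and Ly49H to bind a glycoprotein of mouse cytomegalovirus.

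The NK marker list was above 0 in all 8 of its genes in all 36 libraries, summing to 16986 to 20274 TPM in the subset table. B2m was 73.93 to 128.47 TPM in the KO libraries and 2915.39 to 3419.55 TPM in the WT libraries. All KO TP libraries also carried transcripts of B and plasma cells (7 of 7 markers above 0 in each, summing to 227 to 467 TPM) and of neutrophils (5 to 6 of 6 markers, 61.0 to 218 TPM), against at most 52.82 and 5.85 TPM in any library of the other 5 sorted groups. The summed myeloid list moved with subset (476 to 569 TPM in WT TP and 874 to 888 TPM in WT TN cells), nearly all of it Itgax at 456.68 to 547.29 and 856.55 to 875.94 TPM, a gene that NK cells express too, and its part in the subset differences was not tested. TPM keep no depth, so the depth behind each value is unknown and precision rests on the spread of 3 libraries. These are bulk levels, so fewer cells with a receptor and less RNA per cell cannot be told apart.

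Members share sequence, which bears on how reads are assigned between them. In the GENCODE M21 transcripts of GRCm38, 33.1% of the stretches of 50 bases in Klra8 and 31.5% of those in Klra9 occur exactly in another gene, against 20.7% for Klra3, 13.7% for Klra13-ps, 12.3% for Klra7 and at most 4.68% for the other 5. For Klra8 the closest partner was the pseudogene Klra14-ps (20.4% of stretches), for Klra9 and Klra3 each other (13.1% and 13.5%), and for Klra13-ps and Klra7 each other (13.7% and 12.3%). Klra9 shared nearly as much with Klra10, which lies outside the 10 genes (166 stretches against 167 with Klra3), and 121 stretches with Klra8. At 100 bases Klra8 kept 14.4% and each other member at most 4.07%, with Klra11-ps closest to Klra9 and Klra10 closest to Klra3. Values of Klra8, Klra9, Klra3, Klra13-ps and Klra7 are therefore uncertain to the extent that reads could be split between copies.

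The stretches before the gene starts show the same close relations, and those of the activating pair and of the pair used in the sort are given here because their transcripts are compared most often below. Sequences are from RefSeq on GRCm38.p6, chromosome 6, minus strand, and capitals mark bases that differ from the paired gene or have no partner in the alignment. Klra8 has another RefSeq start whose window (chr6:130129836-130130085) is not shown. That start and the start used for Klra3 did not match a GENCODE transcript start. Klra4 (chr6:130067272-130067521) and Klra8 (chr6:130129899-130130148) were identical at 212 of 249 aligned positions (85.1%). Klra3 (chr6:130337627-130337876) and Klra9 (chr6:130193113-130193362) were identical at 224 of 231 aligned positions, with unpaired ends because their annotated starts are offset.

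Klra4: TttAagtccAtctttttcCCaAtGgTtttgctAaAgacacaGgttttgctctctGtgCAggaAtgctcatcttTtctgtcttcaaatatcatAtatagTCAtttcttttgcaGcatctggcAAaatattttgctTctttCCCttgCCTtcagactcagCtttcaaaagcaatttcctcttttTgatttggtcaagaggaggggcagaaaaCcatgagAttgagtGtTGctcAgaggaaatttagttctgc
Klra8: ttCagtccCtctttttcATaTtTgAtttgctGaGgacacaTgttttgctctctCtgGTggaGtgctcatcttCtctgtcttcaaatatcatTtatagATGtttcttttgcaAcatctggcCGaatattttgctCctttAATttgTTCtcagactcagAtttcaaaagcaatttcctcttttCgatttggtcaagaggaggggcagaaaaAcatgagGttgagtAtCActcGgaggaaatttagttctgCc
Klra3: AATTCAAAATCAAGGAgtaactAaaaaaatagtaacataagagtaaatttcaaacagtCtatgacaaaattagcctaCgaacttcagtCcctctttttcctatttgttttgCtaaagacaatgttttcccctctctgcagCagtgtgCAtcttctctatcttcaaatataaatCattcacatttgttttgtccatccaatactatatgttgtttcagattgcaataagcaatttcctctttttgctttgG
Klra9: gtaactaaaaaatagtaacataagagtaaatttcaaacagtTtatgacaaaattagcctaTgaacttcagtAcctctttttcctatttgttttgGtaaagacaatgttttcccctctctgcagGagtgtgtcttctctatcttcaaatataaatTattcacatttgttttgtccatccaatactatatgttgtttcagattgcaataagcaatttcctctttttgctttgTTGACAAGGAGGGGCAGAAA

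The letters TATAAA, searched on both strands, occur in this window for Klra8, Klra3 and Klra9 and not for Klra4, and in 12.4% of the 32851 promoter windows of equal length. TGTGGT, the core that RUNX factors bind, was found in none of these 4 windows and, among members, in that of Klra1 alone, against 14.0% of all windows. These matches are descriptions of letters and say nothing of use. Of the 10 members, 9 have an entry in that table and Klra13-ps has none.

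The genes whose proteins were used in the sort followed it. Klra3 was 245.08, 214.24 and 193 TPM in WT TP cells, 2.87, 0.18 and 1.16 TPM in SP cells and 0.23, 2.48 and 1.61 TPM in TN cells, and KO cells gave 302.52, 289.53 and 432.81 TPM in TP, 0.79 to 1.55 TPM in SP and 0.27 to 1.02 TPM in TN. Klra9 was 1060.09, 859.71 and 968.79 TPM in WT TP cells, 966.33, 805.41 and 1012.82 TPM in SP cells and 82.46, 87.69 and 77.08 TPM in TN cells. Both genes are thus high where their receptor was selected and low where it was excluded, with no overlap, and this is a check of the sort. Klra3 transcript nearly disappeared from Ly49C-negative cells, whereas the Klra9 mean was 11.7-fold lower in WT cells sorted as lacking Ly49I. With limma on log2(TPM + 1), Klra9 fell by 3.53 ± 0.13 (SE) from WT TP to TN cells (adjusted p = 2.26e-11) and fell by 2.97 ± 0.13 in KO cells (1.81e-10), and between SP and TP cells, which both carry Ly49I, it differed by -0.05 ± 0.13 in WT (adjusted p = 0.952).

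**Figure D1:**
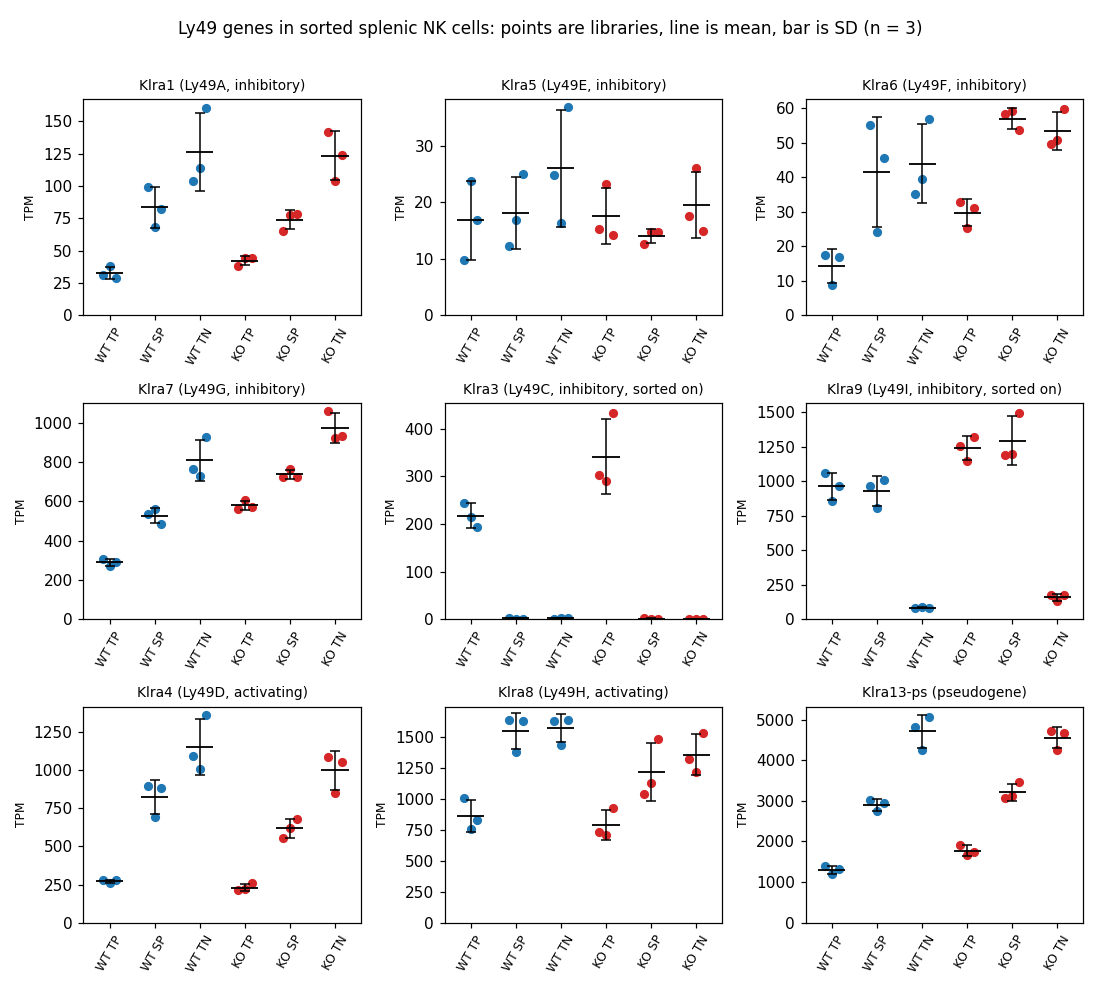
TPM (linear axis from 0) of 9 Ly49 genes in each library of the 6 sorted groups, with points for libraries, lines for means and bars for SD (n = 3). Klra4, Klra1, Klra7 and Klra13-ps are lowest in TP cells of each genotype, while Klra3 and Klra9 follow the sort.

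The activating receptor genes were higher in WT SP and TN cells, which both lacked Ly49C and NKG2A, than in WT TP cells. Klra4, which encodes Ly49D, was 277.28, 258.17 and 276.72 TPM in WT TP cells, 894.5, 693.05 and 881.47 TPM in SP cells and 1093.16, 1007.16 and 1359.19 TPM in TN cells. Every SP library was above every TP library and every TN library above every SP library. On the log2 scale Klra4 rose by 1.59 ± 0.13 in SP over TP cells (limma, adjusted p = 2.38e-06; 3.04-fold in mean TPM) and by 2.08 ± 0.13 in TN over TP cells (adjusted p = 2.27e-08; 4.26-fold), and the TN to SP difference of 0.48 did not pass (adjusted p = 0.133). Klra8, which encodes Ly49H, was 1005.76, 755.55 and 827.43 TPM in WT TP cells, 1632.39, 1378.25 and 1627.68 TPM in SP cells and 1625.9, 1436.08 and 1637.45 TPM in TN cells. Its SP and TN values overlapped each other and lay above all TP values. Klra8 rose by 0.87 ± 0.14 in TN over TP cells (adjusted p = 0.00262) and by 0.85 ± 0.14 in SP over TP cells (adjusted p = 0.0103). The second of these calls was lost in 8 of 15 alternative settings (adjusted p from 5.01e-05 to 0.33), among them the sum of Klra8 with Klra14-ps (change of 0.63, adjusted p = 0.0633), leaving out WT TP replicate 2 or 3 and leaving out WT SP replicate 1 or 3 (0.0609 to 0.085).

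Of the 5 inhibitory genes outside the sort, Klra7, Klra1 and Klra6 also rose from TP to TN and to SP cells in WT, Klra5 passed no test and Klra2 was not tested. Klra7, the gene of Ly49G, was 307.28, 271.39 and 291.34 TPM in TP, 537.12, 559.23 and 483.3 TPM in SP and 765.67, 729.47 and 928.39 TPM in TN cells. The 3 groups did not overlap, and Klra7 rose by 0.86 ± 0.09 from TP to SP (adjusted p = 6.46e-05), by 1.47 ± 0.09 from TP to TN (2.27e-08) and by 0.61 ± 0.09 from SP to TN (0.00361). Klra1, the gene of Ly49A, was 31.1, 38.06 and 29.05 TPM in TP, 99.37, 68.36 and 82.63 TPM in SP and 103.72, 114.17 and 160.38 TPM in TN cells, again without overlap. Its rise over TP cells was 1.32 ± 0.18 in SP (adjusted p = 0.00136) and 1.90 ± 0.18 in TN cells (5.69e-06). Klra6, the gene of Ly49F, was 8.69 to 17.46 TPM in TP, 24.09 to 55.05 TPM in SP and 35.2 to 56.77 TPM in TN cells, and it rose by 1.58 ± 0.28 in TN (adjusted p = 0.00578) and by 1.45 ± 0.28 in SP cells (0.0396). The SP call of Klra6 was lost in 8 of 15 alternatives (adjusted p from 0.00398 to 0.757), among them leaving out any WT TP library and WT SP replicate 1 or 3 (0.0609 to 0.233). Klra5, the gene of Ly49E, ran from 9.81 to 36.89 TPM over the 18 sorted libraries, with overlap between all WT subsets. With only the compared groups in the fit, the WT TN against TP calls of Klra8 (adjusted p = 0.116), Klra1 (0.058) and Klra6 (0.25) were lost, as were the SP against TP calls of Klra1 (0.236) and Klra7 (0.0679) and the TN against SP calls of Klra7 (0.4) and Klra13-ps (0.284).

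Klra13-ps was the highest member in all 6 sorted groups. It was 1398.87, 1203.35 and 1324.04 TPM in WT TP cells, 3027.43, 2739.54 and 2936.9 TPM in SP cells and 4831.54, 4257.87 and 5056.1 TPM in TN cells. No library of 1 group overlapped another, and its rises of 1.15 ± 0.08 (TP to SP, adjusted p = 2.59e-07), 1.85 ± 0.08 (TP to TN, 1.57e-10) and 0.70 ± 0.08 (SP to TN, 0.000311) made it, with Klra7, 1 of 2 members called higher in all 3 WT comparisons. Its annotated transcripts are 640 to 850 bases long, and TPM divide by length.

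Counted over the family, 6 of 9 tested members were called higher and 2 lower between the WT TN and TP subsets, where 0.682% and 0.624% of all 12018 tested genes were called higher and lower (1.31% in all). In WT SP against TP cells 6 were higher and 1 lower (0.116% and 0.0749% of all genes, 0.191% in all), and in WT TN against SP cells 2 were higher and 1 lower (0.183% and 0.2%, 0.383% in all). By ranges alone, 6 of 10 members were separate and higher and 2 separate and lower in WT TN than TP cells (6.62% and 7.95% of all tested genes, 14.6% in all). The same counts were 6 and 1 for WT SP against TP (5.19% and 5.37%, 10.6% in all) and 4 and 1 for WT TN against SP (5.28% and 6.11%, 11.4% in all). The SP and TN comparisons share their TP libraries. The median change over the 9 members was 1.47, 0.86 and 0.48 in these comparisons, and over all tested genes -0.01, 0 and -0.002. The members called lower, and those separate and lower, were the sorted Klra3 and Klra9, so those counts follow from the sort.

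In KO cells Klra4, Klra8, Klra7, Klra1 and Klra13-ps also rose from TP to TN cells. KO TP libraries are those with B and plasma cell (227 to 467 TPM) and neutrophil markers (61.0 to 218 TPM), against at most 18.65 and 0.39 TPM in KO TN libraries, and their part in these steps was not tested. Klra4 was 214.38, 218.19 and 258.67 TPM in KO TP, 555.71, 619.82 and 681.37 TPM in SP and 1088, 851.33 and 1054.84 TPM in TN cells, with no overlap between subsets. It rose by 1.42 ± 0.13 in SP (adjusted p = 1.7e-05) and 2.11 ± 0.13 in TN over TP cells (2.52e-08), and the TN to SP difference of 0.69 was not called (0.0881) except with replicate number as a block (0.0191) or without KO TN replicate 2 (0.0458), over a range of 0.0191 to 0.582. Klra8 was 730.26, 703.65 and 927.23 TPM in KO TP, 1034.62, 1130.2 and 1477.42 TPM in SP and 1316.18, 1212.08 and 1533.44 TPM in TN cells. TP values lay below all others, and Klra8 rose by 0.79 ± 0.14 in TN cells (adjusted p = 0.0107). That call was lost in 6 of 15 alternatives (up to 0.219), among them its sum with Klra14-ps (0.0881) and leaving out KO TP replicate 1 or 2 or KO TN replicate 3 (0.0835 to 0.0892), while the SP change of 0.62 was called only with the replicate block (0.000975, against 0.122 without it and a range up to 0.767).

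Klra7 was 558.91, 605.55 and 570.98 TPM in KO TP, 723.76, 764.5 and 722.29 TPM in SP and 1061.02, 922.52 and 933.1 TPM in TN cells, separate in all 3 subsets. It rose by 0.75 ± 0.09 from TP to TN cells (adjusted p = 0.00015), while the step to SP of 0.35 was not called (0.301) unless Klra7 was summed with Klra13-ps (0.75, adjusted p = 2.27e-05, in a range up to 1). Klra13-ps is the larger part of that sum, with means of 1776 against 578 TPM in KO TP and 3212 against 737 TPM in KO SP cells. The call of the sum is therefore mostly that of Klra13-ps and does not show a step of Klra7 itself. Klra1 was 38.08, 44.19 and 44.78 TPM in KO TP, 65.32, 77.77 and 78.7 TPM in SP and 141.98, 104.06 and 124.38 TPM in TN cells, and rose by 1.51 ± 0.18 in TN cells (0.000131). Klra13-ps was 1914.15, 1663.12 and 1749.75 TPM in KO TP, 3065.76, 3115.62 and 3454.59 TPM in SP and 4733.09, 4255.38 and 4669.22 TPM in TN cells, and rose by 0.86 ± 0.08 and 1.36 ± 0.08 over TP (adjusted p = 1.7e-05 and 1.41e-08). Its call of 0.50 between TN and SP cells (0.0217) was lost in 8 of 14 alternatives (up to 0.492), among them leaving out KO SP replicate 1 or 2 or KO TN replicate 1 or 3 (0.0978 to 0.216). 

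In KO cells 5 members were called higher and 2 lower in TN than TP cells (0.241% and 0.283% of all genes, 0.524% in all). There were 2 higher and 1 lower in SP than TP (0.0832% and 0.116%, 0.2% in all), and 1 higher and 1 lower in TN than SP (0.0166% and 0.025%, 0.0416% in all). By ranges alone, 6 were separate and higher and 2 lower in KO TN than TP (5.67% and 7.49% of all genes, 13.2% in all), 6 and 1 in KO SP than TP (4.75% and 6.14%, 10.9% in all), and 5 and 1 in KO TN than SP (5.09% and 5.8%, 10.9% in all). The median change over members was 0.79, 0.62 and 0.40 in these comparisons, and over all genes -0.03, -0.006 and -0.02. The members called lower, and those separate and lower, were again the sorted Klra3 and Klra9, so those counts follow from the sort.

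**Figure D2:**
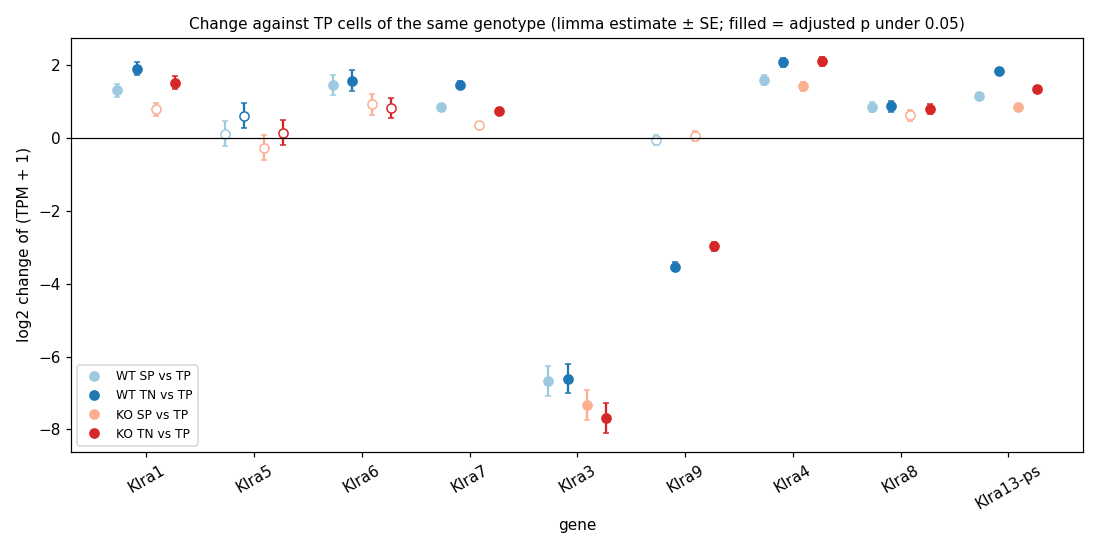
Log2 change of (TPM + 1) of 9 Ly49 genes in SP and TN cells against TP cells of the same genotype, as limma estimates with SE, filled where the adjusted p over all genes is under 0.05. Klra4 shows 2.08 in WT TN and 2.11 in KO TN cells, while Klra7 shows 1.47 and 0.75.

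The order of members also differed by subset. In WT TP cells Klra13-ps was followed by Klra9 (859.71 to 1060.09 TPM) and Klra8 (863 ± 129 TPM, SD, n = 3), whose values overlap, then by Klra7 (290 ± 18.0) and Klra4 (271 ± 10.9), which overlap as well. In WT TN cells Klra13-ps, Klra8 (1566 ± 113), Klra4 (1153 ± 184), Klra7 (808 ± 106), Klra1 (126 ± 30.2) and Klra9 (82.4 ± 5.31) followed each other without overlap between neighbours, with Klra6 and Klra5 below them and overlapping each other. In KO TN cells Klra4 (998 ± 128) and Klra7 (972 ± 77.1) were not separate, nor were Klra9 (158 ± 25.5) and Klra1 (123 ± 19.0).

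Summed over members, the family took 3633 to 4353 TPM in WT TP, 6285 to 7227 TPM in SP and 7691 to 9314 TPM in TN cells, and 4723 to 5350, 6709 to 7981 and 7551 to 8581 TPM in the same KO subsets. The ratio of activating (Klra4 plus Klra8) to inhibitory TPM (the 7 inhibitory genes) was 0.737 ± 0.0272 in WT TP, 1.48 ± 0.0608 in SP and 2.51 ± 0.159 in TN cells, against 0.450 ± 0.0352, 0.838 ± 0.0692 and 1.77 ± 0.179 in KO cells (SD, n = 3). WT exceeded KO libraries of the same subset without overlap. Klra3 and Klra9, whose proteins the TN sort selected against, are part of the inhibitory sum. With those 2 genes left out, the WT ratios were 3.20 ± 0.283, 3.54 ± 0.422 and 2.73 ± 0.200, with every TN library below every TP library, and the KO ratios were 1.52 ± 0.241, 2.08 ± 0.348 and 2.02 ± 0.237, still below WT in every subset. Klra7 makes up most of the inhibitory sum that is left, with means of 290 of 354 TPM in WT TP, 808 of 1004 TPM in WT TN and 578 of 669 TPM in KO TP cells. These ratios therefore carry Klra7 more than any other inhibitory gene. No test was made on these sums.

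**Figure D3:**
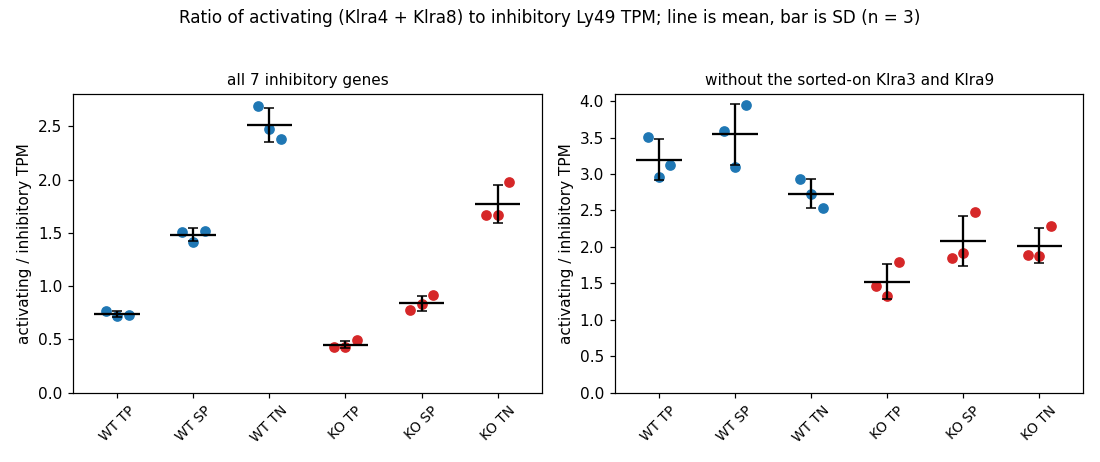
Ratio of summed activating to summed inhibitory Ly49 TPM per library (points; line mean, bar SD, n = 3), with all 7 inhibitory genes on the left and without Klra3 and Klra9 on the right. Every KO library lies below every WT library of the same subset in both panels, and WT TN libraries lie above WT TP libraries on the left and below them on the right. On the right, Klra7 makes up most of the inhibitory sum.

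Between genotypes, Klra7 was the member with the smallest adjusted p. KO TP cells held 558.91 to 605.55 TPM against 271.39 to 307.28 TPM in WT TP cells, a rise of 0.99 ± 0.09 (limma, adjusted p = 3.52e-06; 1.99-fold in mean TPM). In SP cells the ranges were 722.29 to 764.5 and 483.3 to 559.23 TPM, a rise of 0.49 ± 0.09 (adjusted p = 0.00757), and in TN cells they overlapped, with a difference of 0.27 ± 0.09 (0.247). Groups were thus separate in TP and SP cells. The SP call was lost in 4 of 15 alternatives (up to 0.234), among them leaving out KO SP replicate 2 (0.0545) and the sum with Klra13-ps (change 0.20, 0.234), while the TP call held in all 15 (0.56 to 1.04, with 0.56 for that sum). Klra13-ps is the larger part of the sum in both subsets, so those values of the sum say little of Klra7 itself. The TN difference was called only without WT TN replicate 3 (0.0461; 0.0461 to 1 over its alternatives).

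The gene of Ly49I, Klra9, rose in KO over WT cells in the TN subset. There, sorted as Ly49I-negative, it was 172.08, 128.85 and 174.06 TPM in KO and 82.46, 87.69 and 77.08 TPM in WT libraries, a rise of 0.92 ± 0.13 (adjusted p = 0.000751; 1.92-fold), a call lost in 1 of 15 alternatives, with only the compared groups in the fit (0.176; 0.000203 to 0.176 over all). Values did not overlap in TP (1149.99 to 1319.25 against 859.71 to 1060.09 TPM) or SP cells (1191 to 1497.52 against 805.41 to 1012.82 TPM) either, but those changes of 0.37 and 0.48 were not called (adjusted p = 0.201 and 0.0781). Klra13-ps rose by 0.44 ± 0.08 in KO TP cells (0.00566), a call lost in 2 of 14 alternatives (up to 0.141). Klra6 was 32.78, 25.43 and 31.02 TPM in KO TP against 17.46, 8.69 and 16.85 TPM in WT TP cells, and its change of 1.05 ± 0.28 was not called (0.0774).

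The activating genes gave no call between genotypes. Klra4 changes were -0.24, -0.41 and -0.20 in TP, SP and TN cells (adjusted p = 0.498, 0.16 and 0.609), with KO SP values of 555.71 to 681.37 TPM below all WT SP values of 693.05 to 894.5 TPM. Klra8 changes were -0.13, -0.36 and -0.21 (0.781, 0.297 and 0.627). In all, 2, 1 and 1 members were called higher in KO TP, SP and TN cells and none lower by limma, where 0.982%, 0.766% and 0.424% of all genes were called higher (1.59%, 1.35% and 0.716% in all). Median-of-ratios scaling moved the split of all called genes in TP cells from 118 higher and 73 lower to 94 and 93, while Klra7 and Klra13-ps stayed called there. In KO TP against WT TP cells 6 of 10 members, the sorted Klra3 and Klra9 among them, were separate and higher and 0 lower (11.1% and 7.14% of all genes, 18.3% in all). In SP cells 3, Klra9 among them, were separate and higher and 1 lower (11.1% and 7.78%, 18.9% in all), and in TN cells 1, the sorted Klra9, was higher and 0 lower (7.95% and 5.76%, 13.7% in all). The markers of B cells and neutrophils given above move with the KO TP group, and their part in these differences was not tested.

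Whether the subset step differed by genotype was tested as an interaction. No member was called by limma in either interaction, and at an unadjusted p under 0.05 there were 3 members for TN against TP (Klra7, Klra13-ps and Klra9) and 2 for SP against TP (Klra7 and Klra13-ps), of 9 tested. Of all genes 6.27% and 4.41% had such a p, and 0.025% and 0.0166% were called. The nearest was Klra7, whose TP to TN step was larger in WT by 0.72 ± 0.13 (adjusted p = 0.0808). It passed with quantile normalization (0.018) and without WT TN replicate 2 (0.0359), over a range of 0.018 to 0.255. For Klra4 the same difference was -0.03 ± 0.18 (0.992).

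After 22 h of culture the vehicle libraries differed among themselves. Vehicle replicate 1 was lowest for the activating genes, and vehicle replicate 3 held neutrophil markers at 349.02 TPM (0 and 2.19 TPM in replicates 1 and 2) and summed NK markers of 7037.71 TPM (11285.79 and 11802.2 TPM). Ionomycin replicate 3 held 119.34 TPM of neutrophil markers (0 and 0.7 TPM in the other two). Klra8 was 299.11, 922.17 and 1097.37 TPM with vehicle and 456.25, 609.44 and 592.17 TPM with ionomycin, and Klra4 was 343.5, 674.69 and 813.5 TPM and 488.63, 561 and 623.07 TPM. For both, replicate 1 was far below the other vehicle values and the groups overlapped. Klra7 was 383.31, 492.63 and 424.93 TPM with vehicle and 708.28, 584.24 and 648.41 TPM with ionomycin, and Klra1 was 39.03, 46.55 and 41.56 TPM and 72.11, 51.41 and 113.97 TPM. These were the 2 members whose groups did not overlap, both higher with ionomycin, where 10.5% of all tested genes were separate and higher and 20.1% separate in either direction, so the share of members is that of all genes. Their changes of 0.58 ± 0.19 and 0.81 ± 0.32 were not called (adjusted p = 0.171 and 0.282). Limma called no member, with 2 of 9 at an unadjusted p under 0.05 against 15.1% of all 14372 genes, of which 2.91% were called. Leaving out each library in turn, vehicle replicates 1 and 3 included, gave 0 calls as well. The summed NK markers were 4585 to 5565 TPM with ionomycin and 7038 to 11802 TPM with vehicle, and the part of these and of the neutrophil markers in these values was not tested.

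After 48 h, Klra9, Klra4 and Klra8 had every antibody value below every medium value, and no difference was called without a replicate block. Klra9 was 842.04, 777.33 and 764.55 TPM in medium, 636.35, 605.03 and 526.65 TPM on antibodies to NKp46 and NKG2D and 603.81, 627.82 and 538.43 TPM on antibodies to NKp46 and DNAM-1. The gap to the lowest medium value was wide for all 6 antibody libraries. Its changes were -0.43 ± 0.10 for each antibody pair, not called without a replicate block (adjusted p = 0.095 and 0.0755) and called with it (0.0246 and 0.0172, over ranges up to 0.996 and 0.73). The column names join each number to the genotype, which reads as 1 mouse per number. Klra4 was 1301.09, 1094.37 and 1157.91 TPM in medium, 1054.53, 953.61 and 996.66 TPM with NKG2D and 984.9, 923.79 and 1004.97 TPM with DNAM-1, and Klra8 was 1651.19, 1394.94 and 1461.43 TPM, 1392.16, 1253.26 and 1074.79 TPM, and 1325.91, 1131.45 and 999.45 TPM. For Klra8 the separation was narrow on the NKG2D pair, where the highest antibody value nearly met the lowest medium value. With DNAM-1 their changes of -0.28 ± 0.08 and -0.39 ± 0.12 were called with the block (0.0408 and 0.025, against 0.131 and 0.161, over ranges up to 0.86 and 0.588), and with NKG2D their changes of -0.24 ± 0.08 and -0.28 ± 0.12 were not called with or without it (0.226 and 0.326 without). Grouped by the sample titles instead of the column names, none of these was called.

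Other members showed no call after antibody culture. Klra7 was 898.75, 974.31 and 946.45 TPM in medium, 878.67 to 980.6 TPM with NKG2D, which overlaps, and 811.85 to 870.69 TPM with DNAM-1, below every medium value (change -0.16 ± 0.07, adjusted p = 0.281). Klra13-ps was 626.19, 399.54 and 531.8 TPM in medium, 387.58, 410.67 and 281.63 TPM with NKG2D, again overlapping, and 380.77, 321.86 and 283.88 TPM with DNAM-1, which is separate (change -0.64 ± 0.19, adjusted p = 0.136). Klra3 was 258.22 to 340.77 TPM in medium and 251.27 to 280.24 TPM on antibodies. Without the block limma called no member against medium for either pair, with 4 members (NKG2D) and 5 members (DNAM-1) at an unadjusted p under 0.05, as had 15.1% and 18.0% of all 13689 genes. Of all genes 0.431% and 0.782% were called. By ranges alone, 3 members were separate and lower with NKG2D and 5 with DNAM-1 (9.84% and 11.6% of all genes; 17.3% and 21.1% separate in either direction). The 2 antibody comparisons share their medium libraries. Between the antibody pairs no member was called, none had an unadjusted p under 0.05, and 0.0146% of genes were called.

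**Figure D4:**
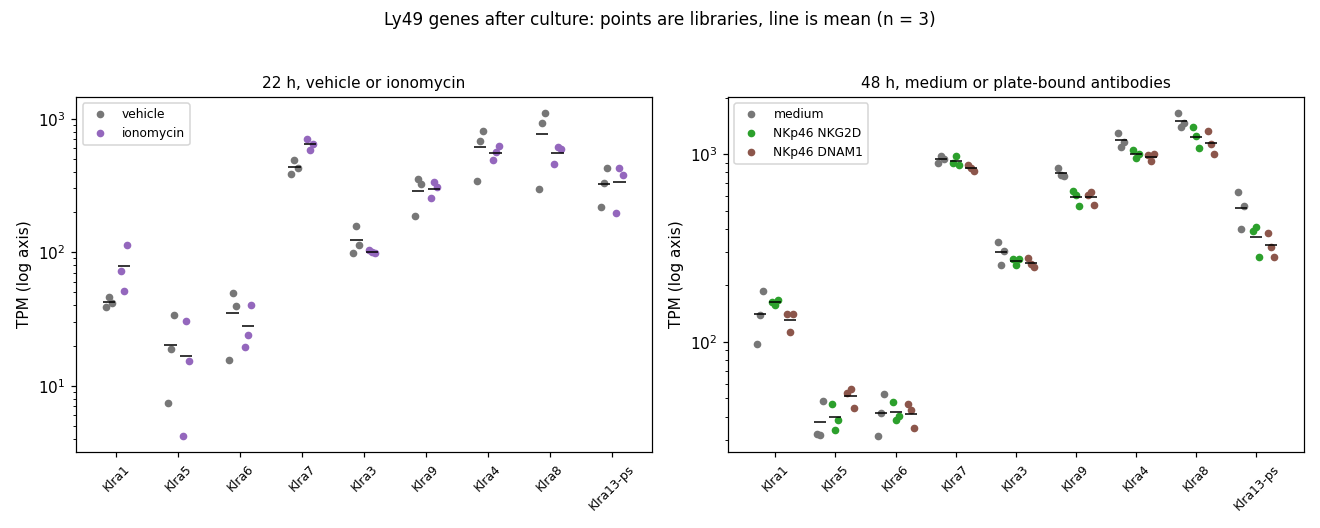
TPM (log axis) of 9 Ly49 genes per library (points; line mean, n = 3) after 22 h with vehicle or ionomycin and after 48 h in medium or on plate-bound antibodies. Klra7 and Klra1 are separate between vehicle and ionomycin, and every medium value of Klra9, Klra4 and Klra8 lies above every antibody value.

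In NK cells from MC38 B2m-/- tumours the most abundant member was Klra8 at 878.11, 680.74 and 796.56 TPM. It was followed by Klra4 at 524.89, 528.88 and 482.61 TPM, Klra9 at 399.89, 342.77 and 475.63 TPM and Klra7 at 374.95, 358.67 and 374.19 TPM, of which the last pair overlapped. Klra13-ps was 247.53 to 277.47 TPM, Klra3 199.13, 125.03 and 212.83 TPM, and Klra1 44.25 to 60.66 TPM, with Klra6 and Klra5 between 5.53 and 16.6 TPM. There is no control group in that table and no test was made. The columns are named SP, but Klra3 at 125.03 TPM or more, and Klrc1 (which encodes NKG2A) at 328.32 to 377.42 TPM, were present at levels that sorted splenic SP cells lacked in their own table, where Klra3 was at most 2.87 TPM and Klrc1 at most 37.23 TPM.

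The pseudogenes set the subset table apart from the others. Klra13-ps was 1203.35 to 5056.1 TPM there and 197.88 to 626.19 TPM in the other 3 tables, where it was never the highest member. Klra14-ps, which shares most with Klra8, was 354.13 to 510.99 TPM in every sorted library and 0 to 18.35 TPM elsewhere. Tables were not tested against each other, and cell sort, culture, batch label and processing cannot be told apart between them.

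**Figure D5:**
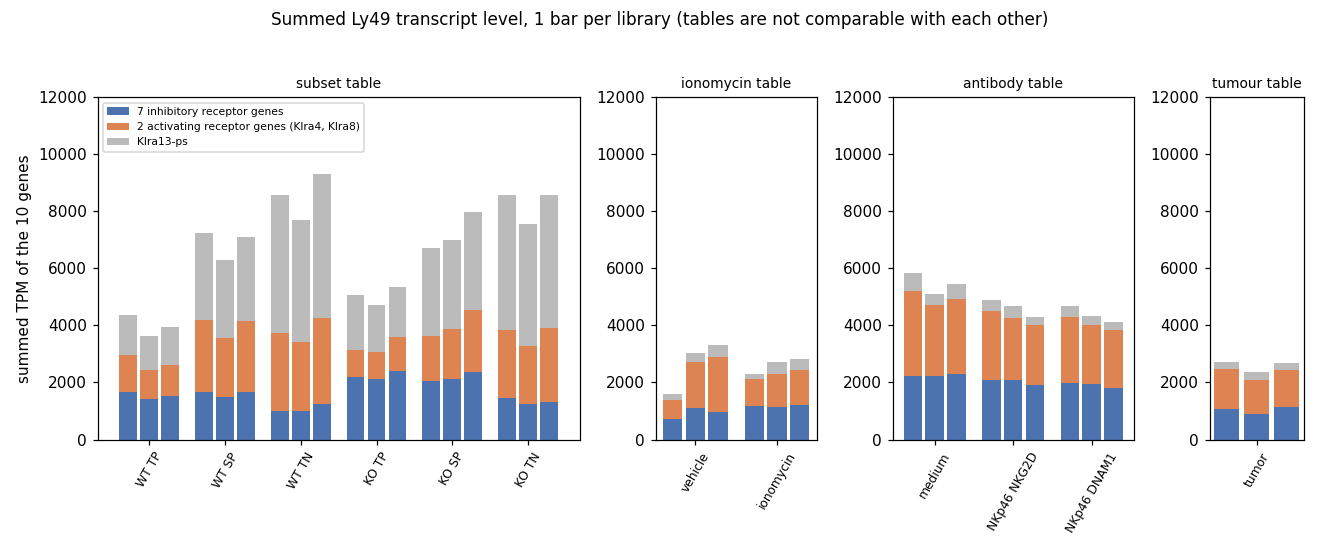
Summed TPM of the 10 Ly49 genes, 1 bar per library, split into 7 inhibitory receptor genes, 2 activating receptor genes and Klra13-ps, with 1 panel per table. In the subset table sums rise from 3633 to 4353 TPM in WT TP to 7691 to 9314 TPM in WT TN cells, and Klra13-ps makes up more of each bar than in the other tables.

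Genes that act with Ly49 receptors were read from lists. Of 12 signalling genes, 2 were higher in WT TN than TP cells, Ptpn6 by 1.02 ± 0.16 (adjusted p = 0.00209) and the Src-family kinase gene Fyn by 0.27 ± 0.06 (0.0347), and none was lower. Ptpn6, the gene of SHP-1, was 163.84, 155.28 and 132.85 TPM in WT TP cells and 357.36, 297.54 and 266.26 TPM in TN cells. Its WT SP values of 119.85 to 191.55 TPM overlapped those of WT TP cells. Ptpn6 was 356.41, 327.51 and 376.27 TPM in KO TP cells, all above the WT TP values (change 1.23 ± 0.16, adjusted p = 0.000239), where Tyrobp was lower by 0.30 ± 0.06 (0.0214), and Ptpn6 rose by 1.15 in KO SP cells (0.000616). Its KO TN values of 270.53 to 362.58 TPM overlapped those of KO TP cells. None of the 12 was called in WT SP against TP or in KO TN against TP cells. With ionomycin 1 of the 12 was higher, Zap70 by 1.95 ± 0.21 (0.00367), and 4 were lower. These were Plcg2 (fell by 1.74), Syk (fell by 1.57), Vav1 (fell by 1.17) and Tyrobp (fell by 0.88, adjusted p = 0.0457). On antibodies none of the 12 was called. The medians over this list were 0.09 in WT TN against TP and -0.43 with ionomycin, against -0.01 and -0.004 over all genes.

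Among 12 transcription factor genes, Tcf7, whose product TCF-1 is known to take part in Ly49 gene activation, was 111.13, 114.35 and 134.64 TPM in WT TP, 149.84, 172.27 and 171.17 TPM in WT TN, 76.53, 79.45 and 74.15 TPM in KO TP and 143.31, 150.81 and 166.57 TPM in KO TN cells. It rose between the TP and TN subsets by 0.45 ± 0.10 in WT (adjusted p = 0.0376) and 0.99 ± 0.10 in KO (3.45e-05) and fell by 0.63 in KO against WT TP cells (0.00264). Between the WT TN and TP subsets 2 of 12 were higher (Tcf7 and Eomes, by 0.73) and 1 lower (Id2, which fell by 0.93). Of 13 other lectin-like receptor genes of the complex, 2 were higher (Klrc2 by 0.96 and Klri2 by 0.86) and 3 lower (Klrc1, Klrg1 and Klrb1b) in WT TN than TP cells. Klrc1 encodes NKG2A, which was part of the sort. Of the 6 genes of MHC class I and its loading, H2-D1 fell by 0.19 (0.0476) and none rose there.

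Across the 18 sorted libraries, Pearson correlations of log2(TPM + 1) describe which genes varied alike, and they share the subset and genotype differences above. Klra1 and Klra13-ps (0.961), Klra1 and Klra4 (0.952) and, equally, Klra4 with Klra8 and with Klra13-ps (0.934 each) were the closest members, and Klra3 against Klra4 (-0.926) the most opposed. Outside the family, Klra4 was most like Klrc2 (0.950), Cmah (0.941) and Klri2 (0.902), Klra8 like Mcam (0.907), Klrc2 (0.886) and Cmya5 (0.850), Klra7 like Fyn (0.928), Cd27 (0.893) and Plek (0.877), and Klra13-ps like Igf2r (0.960), Klri2 (0.955) and Eomes (0.943). Klra1 was most like Cmah (0.930), Klri2 (0.926) and Klrc2 (0.911), and Klra6 like Anxa8 (0.864), Plod2 (0.860) and Klri2 (0.845). Klra5 had no gene above 0.720 (Rbfaos, then Golim4 at 0.712 and Glrx2 at 0.71). Among the sorted genes, Klra3 was most like Klrc1 (0.986), Adgrg5 (0.933) and H2-Aa (0.911), and Klra9 like Kcnj8 (0.904), Id2 (0.893) and Rap1b (0.893). Klrc1 encodes NKG2A, which was sorted together with Ly49C, so its likeness to Klra3 follows from the sort. All correlations of Klra3 and Klra9, that with Klra4 included, carry the sort as well.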

How the data were processed

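RNA was sequenced from 36 mouse NK cell samples in 12 groups of 3. Values are TPM in 4 tables as the authors deposited them, made with STAR and RSEM on GRCm39 per the submitters' processing notes; annotation and versions are not given in the sources used here. Libraries sum to 934291 to 948786 TPM in the subset table and to a full 1000000 (within 1) in the others. Each table carries 1 batch label, so every comparison lies within 1 label, which does not show whether the groups were prepared together.

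Per table, genes averaging 1 TPM or more were tested as log2(TPM + 1) with limma 3.58.1 in R 4.3.3, with an intensity trend and all groups of a table in 1 fit. Fold changes on this scale understate those of low genes. Tests are two-sided, p-values are Benjamini-Hochberg adjusted over all tested genes of each of 15 comparisons, and genes were called at an adjusted p under 0.05. An exact permutation test of 3 against 3 cannot go below 0.1. The fit was tested on simulated data. Values by group are mean ± SD, changes are estimate ± SE. The labels do not state whether replicates are separate animals (column names read as 1 mouse per number for subsets and antibodies), so p-values measure the spread between these samples.

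Same-numbered libraries deviated together with a mean correlation of 0.01 (other pairs -0.005) for sorted subsets, 0.062 (-0.031) for ionomycin and 0.064 (-0.032) for antibodies. All 10 members are named, as are called genes of the lists, at most 3 in each direction (all 4 for the signalling genes lower with ionomycin), and the 3 genes most correlated with a member. The members and lists were chosen with earlier results of these data known. Alternatives were a pseudocount of 0.1, no filter, median-of-ratios scaling, quantile normalization, no trend, a replicate block, only the compared groups, each library left out, and groups from titles. Summing Klra8 with Klra14-ps and Klra7 with Klra13-ps was chosen after seeing the data. Positions and sequences come from RefSeq and GENCODE on GRCm38, not the build of the files; figures used Python 3.11.15.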

Additional observations from a re-analysis of the deposited data

How the results depend on the processing

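Counts of called members were recomputed 239 times over 15 comparisons, and 215 stayed within 1.5 times of the reported one. A count of 0 that stayed 0 is included there. The 663 recomputed changes cover 44 pairs of member and comparison, kept only where the member was called in at least 1 setting. No direction reversed among them, which that choice made unlikely from the start. With only the compared groups in the fit, which leaves fewer samples to estimate the spread, called members were 5 in place of 8 in WT TN against TP, 3 in place of 7 in WT SP against TP, 1 in place of 3 in WT TN against SP, 1 in place of 2 in KO TN against SP, 1 in place of 2 in KO TP against WT TP, and 0 in place of 1 in both KO SP against WT SP and KO TN against WT TN. KO TN against SP also gave 1 without the filter, with quantile normalization and without the trend, KO TP against WT TP gave 1 and KO SP against WT SP gave 0 without the trend; the cause was not tested. Summing Klra7 with Klra13-ps leaves 1 gene fewer to count and gave 1 in KO TP against WT TP and 0 in KO SP against WT SP. The interaction for TN against TP gave 1 in place of 0 with quantile normalization. Leaving out each library gave 1 to 3 in KO TN against SP, 0 to 1 in KO SP against WT SP (0 without KO SP replicate 2), 1 to 2 in KO TN against WT TN (2 without WT TN replicate 3), and 0 to 1 in the TN against TP interaction (1 without WT TN replicate 2). With the replicate block, in which same-numbered libraries are paired, 1 member was called on antibodies to NKp46 and NKG2D and 3 on antibodies to NKp46 and DNAM-1, in place of 0. In the subset and ionomycin tables the block moved no count by over 1.5 times. Median-of-ratios scaling moved the median of all genes by less than 0.1 in any comparison. Depth is unknown, so levels near 0, such as those of Klra2, cannot be graded.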

Other observations

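Klra10 (Ly49J) lies outside the 10 genes and shares sequence with Klra9 and Klra3. It was 111.17, 154.89 and 99.93 TPM in WT TP cells, 260.68, 273.32 and 199.02 TPM in SP cells and 355.49, 303.63 and 317.98 TPM in TN cells, without overlap between TP and the other subsets. It was called higher in TN than TP cells by 1.43 on the log2 scale in WT and by 1.13 in KO cells (limma, adjusted over all tested genes), and in SP than TP cells by 1.01 and 1.04. KO values were 133.72 to 165.07 TPM (TP), 289.7 to 343.95 TPM (SP) and 322.15 to 346.11 TPM (TN). Klra11-ps ran from 0.86 to 15.69 TPM and Klra17 (Ly49Q) from 0 to 1.29 TPM in the sorted libraries.

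Klrg1, an inhibitory lectin-like receptor that binds cadherins, fell from WT TP to TN cells by 2.63 on the log2 scale (limma, adjusted p = 3.41e-09). It was 454.2, 459.51 and 397.17 TPM in WT TP, 298.14, 218.15 and 222.58 TPM in SP and 78.85, 61.63 and 69.3 TPM in TN cells. In KO cells it was 140.79 to 144.47, 74.72 to 87.74 and 37.21 to 52.4 TPM, and against WT it fell by 1.61 (TP), 1.55 (SP) and 0.63 (TN) (limma, adjusted p = 2.25e-06, 4e-06 and 0.045).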
